A study of Mus musculus with 6 samples.

Results

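The thick ascending limb of the loop of Henle is described here through 5 genes, selected by gene name from the 54532 named genes of the count table. They are Slc12a1, Kcnj1, Bsnd, Casr and Umod, and each was found as 1 row, expressed well enough to be tested, as were 15225 genes in all. Kidneys of mice labelled Lpar3-/- (lysophosphatidic acid receptor 3, a receptor for a signalling lipid) were compared with kidneys of mice labelled WT. Every mouse of both groups had spent 12 h at 8% oxygen at normal pressure, and each group had 3 libraries of polyadenylated kidney RNA. The values therefore compare genotypes under hypoxia, and mice in room air were not analysed here. The sources used here give no strain, age or sex, nor which stretch of Lpar3 was altered. Nothing in them ties each library to its own mouse, so p-values reflect variation among these samples, some of it perhaps technical.

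The thick ascending limb reabsorbs salt without water, which dilutes the tubular fluid and builds the osmotic gradient of the medulla. Sodium, potassium and chloride enter its cells from the lumen through the cotransporter NKCC2, encoded by Slc12a1 and blocked by loop diuretics. Potassium returns to the lumen through the channel ROMK, encoded by Kcnj1, and chloride leaves on the blood side through channels that need barttin, the product of Bsnd. The calcium-sensing receptor, encoded by Casr, lowers salt and calcium transport when blood calcium is high. Umod encodes uromodulin, a protein these cells secrete in large amounts into the urine. In humans, loss of SLC12A1, KCNJ1 or BSND causes forms of Bartter syndrome, a salt-wasting disease.

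In GRCm38, the build named in the submitters' processing notes, Slc12a1 (ENSMUSG00000027202) spans positions 125152505 to 125230002 of chromosome 2 on the plus strand. Kcnj1 (ENSMUSG00000041248) spans 32372493 to 32399197 of chromosome 9 on the plus strand. Bsnd (ENSMUSG00000025418) spans 106483456 to 106492283 of chromosome 4 on the minus strand. Casr (ENSMUSG00000051980) spans 36493696 to 36562141 of chromosome 16 on the minus strand, and Umod (ENSMUSG00000030963) spans 119462711 to 119479282 of chromosome 7 on the minus strand. All 5 are protein coding and none lies on chromosome 3, which carries Lpar3. In the GENCODE M21 annotation no exon of Slc12a1, Kcnj1, Bsnd or Casr overlaps an exon of another gene. Of the 2763 exonic bases of Umod, 539 overlap the antisense gene Gm44588, so part of the Umod reads could have been assigned otherwise.

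Upstream sequence was on hand for 4 of the 5 genes, Bsnd being the exception. The 3 with the highest expression are shown from 250 to 51 bases before the RefSeq start (GRCm38.p6), 5′ to 3′ on the strand of the gene, because they let the proximal promoters of genes that share a cell type be compared. Capitals mark every match to CCAAT (the CCAAT box), TATAAA (the TATA box), GTTAAT (part of a homeobox factor motif), AGGTCA (the nuclear receptor core), ACGTG (the core bound by hypoxia-inducible factors) or TGACG (part of the cyclic AMP response element), each searched on both strands.
Slc12a1 (chr2:125152350-125152549, plus strand): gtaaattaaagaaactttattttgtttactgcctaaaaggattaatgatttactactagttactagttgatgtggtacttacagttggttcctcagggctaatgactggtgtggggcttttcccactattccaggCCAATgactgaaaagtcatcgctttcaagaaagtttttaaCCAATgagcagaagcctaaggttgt
Umod (chr7:119479313-119479512, minus strand): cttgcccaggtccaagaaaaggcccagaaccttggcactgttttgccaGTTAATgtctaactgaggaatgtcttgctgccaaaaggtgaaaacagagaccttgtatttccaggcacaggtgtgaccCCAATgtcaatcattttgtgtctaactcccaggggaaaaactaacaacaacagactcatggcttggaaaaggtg
Kcnj1 (chr9:32393735-32393934, plus strand): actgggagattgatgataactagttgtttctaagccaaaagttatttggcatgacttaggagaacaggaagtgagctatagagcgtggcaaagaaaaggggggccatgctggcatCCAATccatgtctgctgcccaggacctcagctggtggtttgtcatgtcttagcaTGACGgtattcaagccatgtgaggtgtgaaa
Slc12a1 held CCAAT at 115 and at 75 bases before the start, Umod held it at 124 and Kcnj1 at 135. In Casr none of the 6 motifs was found in this window. CCAAT was present in 28.4% of the 32851 windows of this length in the RefSeq table, so a match is common. Umod also held GTTAAT, present in 5.33% of windows, and Kcnj1 held TGACG, present in 12.7%. The hypoxia factor core, the nuclear receptor core and the TATA box were not found in any of the 4 windows, against 12.9%, 11.4% and 9.14% of all windows. The RefSeq starts used for Slc12a1 and Kcnj1 lie inside the genes, each at the start of a GENCODE transcript. Both windows thus reach into the annotated gene. The Slc12a1 CCAAT at 75 bases before the RefSeq start lies past the annotated gene start, position 125152505.

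Before the results, the libraries are set out briefly. CPM below are counts scaled to library size with TMM factors. Total counts of named genes ran from 15953794 to 17940438 per library. Lpar3 itself had 672, 592 and 580 counts in the libraries labelled Lpar3-/- and 645, 634 and 577 in WT, with a log2 fold change of 0.0033 (edgeR quasi-likelihood, adjusted p = 0.997). Counts of the targeted gene thus did not set the groups apart. For this reason the text speaks of libraries labelled Lpar3-/-, and every direction rests on the labels. Epo, the outcome named in the series' title, had 20, 15 and 19 counts in the libraries labelled Lpar3-/-, against 69, 57 and 61 in WT. WT libraries differed more from each other (chi-square of the counts per degree of freedom up to 13.9) than the libraries labelled Lpar3-/- did (up to 7.66). WT replicate 2 stood apart in tubular injury genes, whose 8 listed members summed to 479 CPM there, against 338 and 348 CPM in the other WT libraries and 319 to 331.5 CPM in those labelled Lpar3-/-.

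The 5 genes kept 1 order of abundance. By the authors' FPKM, which divides reads by gene length and so allows genes to be compared, Umod was highest, at 930 ± 29.2 FPKM in the libraries labelled Lpar3-/- and 840 ± 52.0 FPKM in WT (SD, n = 3 each). Slc12a1 followed with 246 ± 10.4 FPKM in the libraries labelled Lpar3-/- and 187 ± 12.1 FPKM in WT, and Kcnj1 with 66.3 ± 2.17 FPKM in the libraries labelled Lpar3-/- against 57.8 ± 6.32 FPKM in WT. Bsnd had 17.9 ± 2.60 FPKM in the libraries labelled Lpar3-/- and 15.96 ± 1.61 FPKM in WT, and Casr had 11.9 ± 0.835 FPKM in the libraries labelled Lpar3-/- and 10.8 ± 1.95 FPKM in WT. This order was the same in each of the 6 libraries. The closest neighbours, Bsnd and Casr, did not overlap within a group, since Bsnd ran from 16.1 to 20.8 FPKM where Casr ran from 11.4 to 12.9 in the libraries labelled Lpar3-/-, and from 14.3 to 17.6 where Casr ran from 8.73 to 12.6 in WT. Umod ranked between 24 and 39 among the 54532 named genes of a library, Slc12a1 between 153 and 254, and Casr between 3739 and 5042.

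Of the 5 genes, 0 passed the test between the groups, where 0.374% of the 15225 genes did. The test was edgeR's quasi-likelihood test, with p adjusted by Benjamini-Hochberg over all genes and a threshold of 0.05. All 5 had a positive log2 fold change, the libraries labelled Lpar3-/- over WT, with a median of 0.16, which was 0.10 without WT replicate 2 and 0.27 without WT replicate 1. Among all tested genes 48.9% were positive, with a median of -0.0036. An unadjusted p under 0.05 was reached by Slc12a1 and Kcnj1, both higher, a count of 2 of 5 where 9.18% of all genes reached it and 3.97% did so in that direction. In bulk kidney RNA, a change in the number of cells of a segment and a change in RNA per cell cannot be told apart.

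Slc12a1, the apical salt entry step, came closest to the threshold. Its CPM were 1366, 1427 and 1494 in the libraries labelled Lpar3-/-, against 1099, 1007 and 1154 in WT. The groups did not overlap: the lowest library labelled Lpar3-/- lay above the highest WT library by 0.24 on the log2 scale. The means were 1429 ± 64.1 CPM in the libraries labelled Lpar3-/- and 1087 ± 74.1 CPM in WT (SD, n = 3 each), a fold change of 1.31 with a 95% interval of 1.17 to 1.48. On the log2 scale this was 0.39 (SE 0.0775, edgeR adjusted p = 0.0613), which ranked the gene at 70 of 15225 by p and just outside the calls. The gene had 17023 to 25845 counts per library.

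Whether Slc12a1 passed depended on the test. DESeq2 gave an adjusted p of 1.98e-05 and called this 1 of the 5 genes, where it called 1.1% of all genes. Limma-voom gave 0.0496, with 0.361% called, and edgeR without a filter on low counts gave 0.000107, with 1.95% called. With 1 library left out, the fold change stayed between 0.34 and 0.44 on the log2 scale. The edgeR adjusted p was 0.0445 without WT replicate 3, where 0.322% of genes were called, and 0.168, 0.284 and 0.355 without replicates 1, 2 and 3 of the libraries labelled Lpar3-/-. It was 0.0579 without WT replicate 1 and 0.0818 without WT replicate 2. The direction held in each of these 6 fits, while the call was made in 1. In the 5 others, and with limma on log2(FPKM + 1) or log2(FPKM + 0.1), 0 of the 5 genes were called. Over all genes these fits called 0.077%, 0.166% and 0.0771% without replicates 1, 2 and 3 of the libraries labelled Lpar3-/-, 0.955% and 0.462% without WT replicates 1 and 2, and 0.0487% and 0.0703% on FPKM. With the replicate number as a term, 1 of the 5 was called and 0.525% of all genes.

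Kcnj1, the apical potassium channel, differed less. It had 222.1, 214.8 and 229.9 CPM in the libraries labelled Lpar3-/-, against 215.2, 194.8 and 173.2 CPM in WT. The groups met at their edges, as WT replicate 1 lay just above replicate 2 of the libraries labelled Lpar3-/-. The means were 222 ± 7.58 CPM in the libraries labelled Lpar3-/- and 194 ± 21.0 CPM in WT (SD, n = 3 each), with a log2 fold change of 0.19 (SE 0.084, 95% interval 0.011 to 0.38, edgeR adjusted p = 0.513). Without WT replicate 1 it was 0.27 and without WT replicate 3 it was 0.12 (edgeR adjusted p = 0.174 and 0.690).

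Bsnd, the chloride channel subunit on the blood side, had 44.4, 46.4 and 58.0 CPM in the libraries labelled Lpar3-/-, against 48.9, 39.8 and 44.6 CPM in WT. The groups overlapped, and replicate 3 of the libraries labelled Lpar3-/- was the highest of the 6. Bsnd gave a log2 fold change of 0.16 (SE 0.11, 95% interval -0.081 to 0.40, edgeR adjusted p = 0.743), and 0.034 without that library (edgeR adjusted p = 0.984). Without WT replicate 2 it was 0.086 (edgeR adjusted p = 0.879). The upper bound of the interval was a fold of 1.32, so it includes the 1.31-fold estimate of Slc12a1.

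Casr, the calcium sensor, had 60.9, 54.5 and 54.1 CPM in the libraries labelled Lpar3-/-, against 60.1, 41.4 and 52.3 CPM in WT. WT replicate 2 was low and the other WT libraries lay near or within the range of the other group. Casr gave a log2 fold change of 0.14 (SE 0.12, 95% interval -0.11 to 0.39, edgeR adjusted p = 0.793). Without WT replicate 2 it was 0.0096, and without WT replicate 1 it was 0.27 (edgeR adjusted p = 0.988 and 0.331), so this fold change rested on which WT libraries were used.

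Umod, the secreted protein and the most abundant of the 5, had 2581, 2506 and 2675 CPM in the libraries labelled Lpar3-/-, against 2502, 2212 and 2312 CPM in WT. The groups did not overlap, but they were separated by 0.0018 on the log2 scale, between replicate 2 of the libraries labelled Lpar3-/- and WT replicate 1. Groups without overlap and higher in the libraries labelled Lpar3-/- were seen for Slc12a1 and Umod, 2 of the 5 genes, and for 6.58% of all genes tested. The means of Umod were 2587 ± 85.0 CPM in the libraries labelled Lpar3-/- and 2342 ± 147 CPM in WT (SD, n = 3 each), with a log2 fold change of 0.14 (SE 0.076, 95% interval -0.023 to 0.31, edgeR adjusted p = 0.627). Its upper bound of 1.24-fold lies below the 1.31-fold estimate of Slc12a1, but the intervals of these genes overlap, as that of Slc12a1 begins at 1.17.

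**Figure D1:**
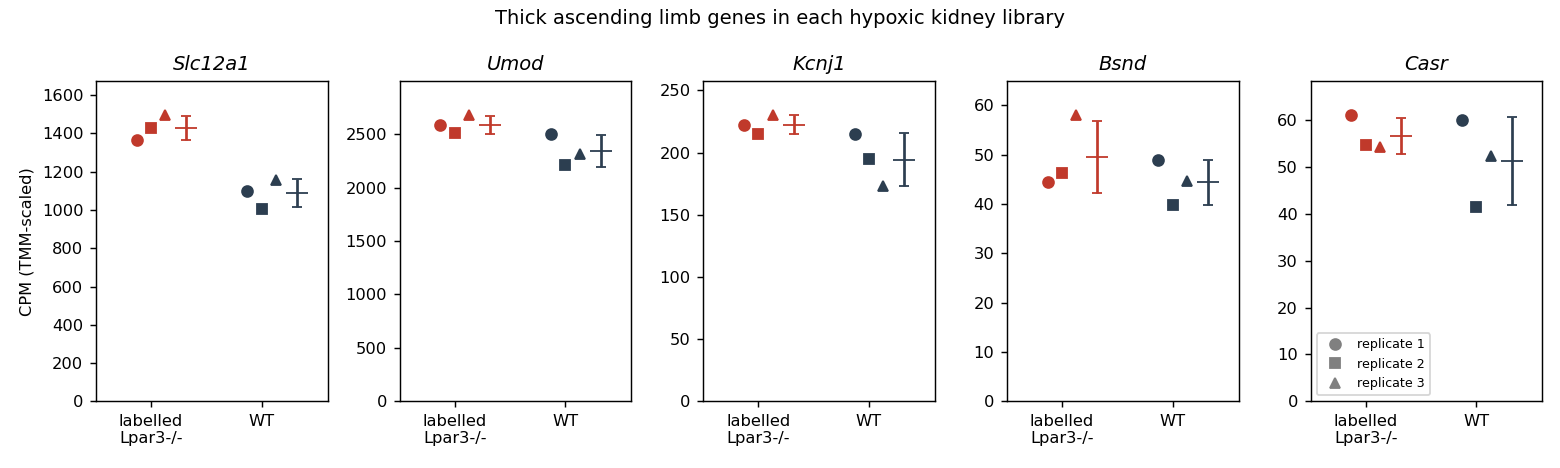
Level of each of the 5 genes in CPM scaled by TMM (y axis from 0), for the 3 libraries labelled Lpar3-/- (red) and the 3 WT libraries (dark blue), where symbols give the replicate number, and the bar and whiskers give the mean ± SD. Slc12a1 at 1366 to 1494 CPM lies clear of WT at 1007 to 1154 CPM, Umod is separated by 0.0018 on the log2 scale, and the other 3 genes overlap.

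WT replicate 1 lay close to the other group for 4 of the 5 genes, and over all genes its counts were nearer to those of the libraries labelled Lpar3-/- (chi-square per degree of freedom 8.34 to 9.57) than to those of either other WT library (up to 13.9). It had the highest WT value of Kcnj1, Bsnd, Casr and Umod. For Kcnj1, Bsnd and Casr its value fell inside the range of the libraries labelled Lpar3-/-, and for Umod it lay just below that range. For Slc12a1 it had 1099 CPM, well below the lowest library labelled Lpar3-/- at 1366 CPM. Left out, it raised the log2 fold changes of Umod, Kcnj1, Bsnd and Casr to 0.19, 0.27, 0.24 and 0.27, while that of Slc12a1 was 0.40. None of the 5 passed without it (edgeR, lowest adjusted p = 0.0579, for Slc12a1), although 0.955% of all genes did.

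Slc12a1 was next set against the other genes within each library, a ratio that library scaling cannot change. Per Umod count there were 0.529, 0.570 and 0.558 Slc12a1 counts in the libraries labelled Lpar3-/-, against 0.439, 0.455 and 0.499 in WT. The 2 groups did not overlap, and the mean log2 ratio was higher by 0.25. Per count of Slc12a3, the thiazide-sensitive cotransporter of the next segment, the distal convoluted tubule, there were 4.51, 4.51 and 4.48 Slc12a1 counts in the libraries labelled Lpar3-/-, against 3.03, 3.74 and 3.73 in WT, a difference of 0.37. The libraries labelled Lpar3-/- were nearly alike in this ratio, and WT replicate 1 was the lowest of the 6. For both ratios the exact permutation test, two-sided, gave p = 0.1, the smallest that 3 against 3 libraries allow, and 0.25 after Benjamini-Hochberg adjustment over the 5 ratios tested.

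Against the other 3 genes the groups overlapped. The ratio to Kcnj1 was 6.15, 6.65 and 6.50 in the libraries labelled Lpar3-/-, against 5.11, 5.17 and 6.66 in WT, where replicate 3 was the highest of the 6. The log2 difference was 0.20 (exact permutation p = 0.4, adjusted 0.4). The ratio to Bsnd differed by 0.24 and that to Casr by 0.24 (exact permutation p = 0.2 and adjusted 0.25 for each). The mean log2 ratio was higher in the libraries labelled Lpar3-/- for all 5 ratios. This sign follows from the fold changes of the single genes, among which that of Slc12a1 was the highest, and is no separate support. The size depended on the WT libraries: the ratio to Kcnj1 differed by 0.13 without WT replicate 1 and by 0.32 without WT replicate 3. The ratio to Casr differed by 0.13 without WT replicate 1 and by 0.33 without WT replicate 2. The exact permutation test cannot go below p = 0.1 with 3 against 3 libraries.

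**Figure D2:**
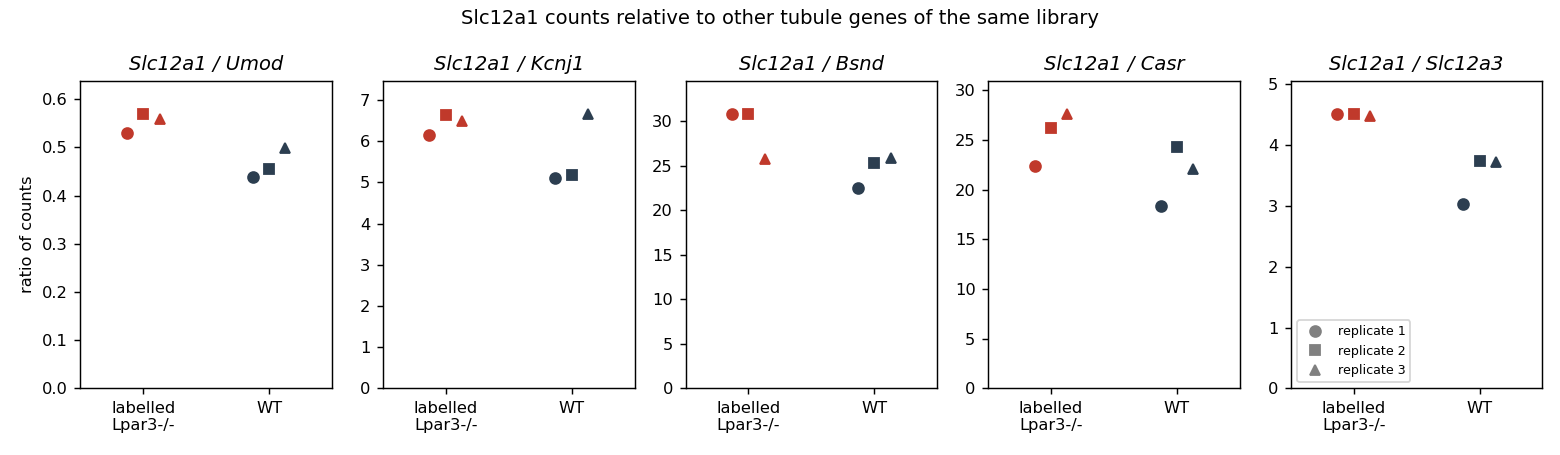
Slc12a1 counts divided by the counts of another gene in the same library (y axis from 0), for the libraries labelled Lpar3-/- (red) and WT (dark blue), with symbols for the replicate number. The ratios to Umod and Slc12a3 do not overlap between the groups, while those to Kcnj1, Bsnd and Casr do.

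**Figure D3:**
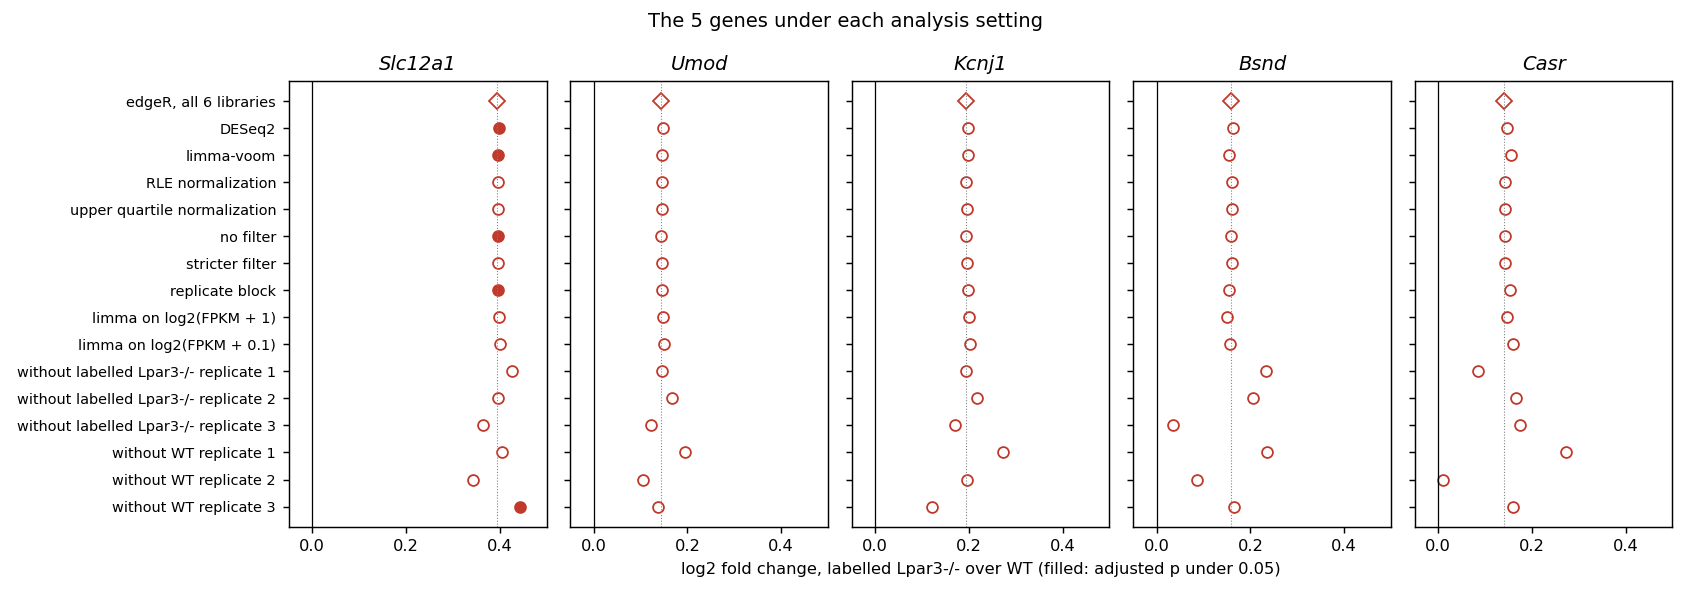
Log2 fold change of each gene, labelled Lpar3-/- over WT (x axis), in edgeR with all 6 libraries (diamond) and in 15 alternatives (circles), with symbols filled where the adjusted p passed 0.05. All points lie above 0, Slc12a1 stays between 0.34 and 0.44 and passed in 5 of the 15, and Bsnd and Casr come down to 0.034 and 0.0096 when replicate 3 of the libraries labelled Lpar3-/- or WT replicate 2 is left out.

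Other genes of the segment were taken from 4 lists. Of 47 listed genes 44 were tested, 32 (72.7%) had a positive fold change and the median was 0.12. Of these 44, 1 rose and 0 fell past the adjusted threshold, where 0.374% of all genes passed it in either direction and 0.125% rose. At an unadjusted p under 0.05, 12 were higher and 2 lower, where 3.97% and 5.21% of all genes were. Groups did not overlap for 13 that were higher and 2 that were lower, against 6.58% and 7.12% of all genes. Cldn14, Wnk3 and Avpr2 had at most 14 counts in a library and were not tested. Of the 2886 exonic bases of Avpr2, 2347 overlap exons of Arhgap4, so its reads may not have been counted to it.

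The transport partners did not move one way. Of 10 tested, 6 were higher and 4 lower by their point estimates (median log2 fold change 0.039, and 0.0040 without WT replicate 2). EdgeR called 0, DESeq2 called 1, and 2 had an unadjusted p under 0.05, against 0.374%, 1.1% and 9.18% of all genes. Atp1b1, a sodium pump subunit gene, and the pump regulator gene Fxyd2 had log2 fold changes of 0.080 and 0.073 (edgeR adjusted p = 0.821 and 0.834). Both are used in most tubule segments. The apical sodium-proton exchanger Slc9a3 had a log2 fold change of 0.11, and the blood-side bicarbonate transporters Slc4a2 and Slc4a7 had -0.063 and -0.085.

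The potassium channel genes of the blood side went apart in their point estimates. Kcnj16, a subunit of the Kir4.1/Kir5.1 potassium channel, had 1139, 1146 and 1120 CPM in the libraries labelled Lpar3-/-, against 1714, 1894 and 1268 CPM in WT. The groups did not overlap, and WT replicate 3 lay nearest to the other group. Its log2 fold change was -0.52 (edgeR adjusted p = 0.111, DESeq2 adjusted p = 0.00072, and edgeR 0.00483 without WT replicate 3). It was also called by edgeR without a filter. It was not called by limma-voom, by limma on FPKM, with the replicate number as a term, or in any other fit with a library left out. Its partner Kcnj10 had 78.4, 85.6 and 78.6 CPM in the libraries labelled Lpar3-/-, against 79.6, 60.9 and 64.9 CPM in WT, with overlap, and a log2 fold change of 0.24 (edgeR adjusted p = 0.454). Both genes are also expressed in the distal convoluted tubule. Kcnj16 had far higher CPM than Kcnj10, and in bulk RNA the segment behind its difference cannot be told.

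Among genes listed for the paracellular pathway, which passes between the cells, 5 of 6 were tested. EdgeR called 0, DESeq2 called 1, and 3 had an unadjusted p under 0.05, against 0.374%, 1.1% and 9.18% of all genes. Cldn10, a sodium-selective claudin, had 231 ± 6.22 CPM in the libraries labelled Lpar3-/- and 193 ± 23.5 CPM in WT, and Cldn19, needed for magnesium and calcium uptake, had 32.5, 31.1 and 28.8 CPM in the libraries labelled Lpar3-/-, against 24.5, 23.8 and 27.2 CPM in WT. Their log2 fold changes were 0.25 and 0.29 (edgeR adjusted p = 0.353 and 0.289), and the groups did not overlap in either. Cldn16, the partner of Cldn19 in that pathway, had -0.014, and Cldn3 had -0.26. Tmem207, a neighbour of Cldn16 on chromosome 16, had the highest value of the list, 0.57, with 22.4, 29.2 and 32.1 CPM in the libraries labelled Lpar3-/-, against 17.6, 17.6 and 21.3 CPM in WT (edgeR adjusted p = 0.126, DESeq2 adjusted p = 0.0213).

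Genes that regulate NKCC2 had log2 fold changes between -0.50 and 0.27. Of 18 tested, 14 were positive with a median of 0.098, which was 0.037 without WT replicate 2. EdgeR called 0, DESeq2 called 1, and 2 had an unadjusted p under 0.05, against 0.374%, 1.1% and 9.18% of all genes. Stk39, which encodes the kinase SPAK that activates the cotransporter, had a log2 fold change of 0.16, and Wnk1, the kinase upstream of it, had 0.12. Sorl1, a sorting receptor that promotes NKCC2 phosphorylation, had 129.7, 141.5 and 148.1 CPM in the libraries labelled Lpar3-/-, against 121.7, 100.5 and 125.5 CPM in WT, without overlap, and a log2 fold change of 0.27 (edgeR adjusted p = 0.344). Rragd, a GTPase of nutrient sensing whose human mutations cause a salt- and magnesium-wasting tubulopathy, ran the other way with 70.9, 66.8 and 61.6 CPM in the libraries labelled Lpar3-/-, against 91.5, 89.6 and 78.3 CPM in WT. Its log2 fold change was -0.38 (edgeR adjusted p = 0.0793, DESeq2 adjusted p = 0.0157).

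The 11 other genes enriched in the segment were mostly higher by their point estimates. Of these, 9 were positive, 7 had an unadjusted p under 0.05, the median was 0.29, and 7 had groups that did not overlap and were higher. Over all genes 9.18% had an unadjusted p under 0.05, 3.97% in that direction, and 6.58% had groups without overlap and higher. Ppp1r1a, which encodes an inhibitor of protein phosphatase 1, rose: it had 137, 141 and 139 CPM in the libraries labelled Lpar3-/-, against 108, 95.7 and 102 CPM in WT. It gave a log2 fold change of 0.45 (SE 0.068, edgeR adjusted p = 0.0136). It was the 1 gene of these 11 that edgeR called, against 0.374% of all genes. The call was lost without replicate 1, 2 or 3 of the libraries labelled Lpar3-/- (edgeR adjusted p = 0.0799, 0.0969 and 0.111) and with limma on log2(FPKM + 1) or log2(FPKM + 0.1) (adjusted p = 0.135 and 0.102), at log2 fold changes between 0.44 and 0.46.

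Esrrb, a nuclear receptor gene, had 85.7, 91.8 and 93.3 CPM in the libraries labelled Lpar3-/-, against 66.6, 46.0 and 67.4 CPM in WT, with WT replicate 2 the lowest. Its log2 fold change was 0.59 (edgeR adjusted p = 0.0713), and 0.43 without WT replicate 2, where it passed (edgeR adjusted p = 0.0254). It also passed without WT replicate 1, with DESeq2 and with no filter. It did not pass without WT replicate 3 or without any library labelled Lpar3-/-. Nor did it pass with limma-voom, limma on FPKM or the replicate number as a term. Cyfip2, an actin regulator gene, had a log2 fold change of 0.34 and Egf, which encodes epidermal growth factor, one of 0.29 (edgeR adjusted p = 0.0780 and 0.195). Their DESeq2 adjusted p-values were 0.000849 and 0.00741. Egf lies on chromosome 3, as do Lpar3 and Ptger3. The transcription factor genes Pou3f3 and Irx2 had 0.21 and 0.30, and Esrrg, a nuclear receptor gene used along several segments, had -0.069.

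**Figure D4:**
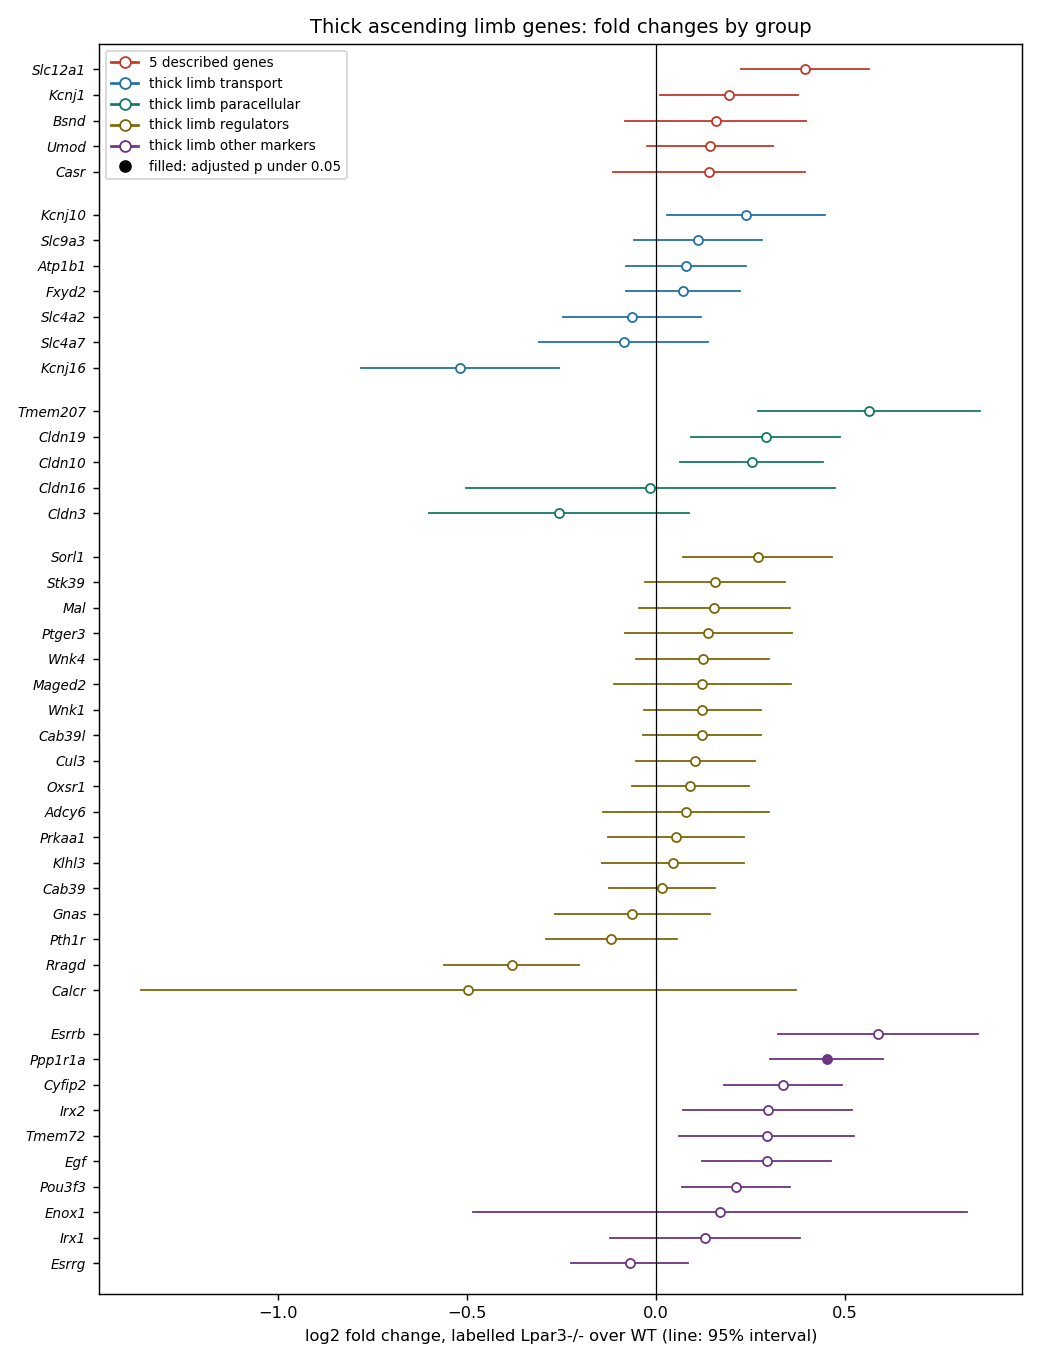
Log2 fold change with its 95% interval (x axis, labelled Lpar3-/- over WT) for the 5 described genes and those tested genes of the 4 thick limb lists that are reported by name here. The filled symbol, Ppp1r1a, passed an adjusted p of 0.05, and intervals wholly below 0 are those of Kcnj16 and Rragd.

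Markers of the neighbouring segments had medians between -0.10 and 0.15. The 7 distal convoluted tubule genes had a median log2 fold change of 0.065, the 7 proximal tubule genes 0.028, the 7 principal cell genes 0.051 and the 7 intercalated cell genes -0.10, which was 0.081 without WT replicate 1. The 4 thin limb genes had a median of 0.15, with Aqp1, a water channel also found in the proximal tubule, at 0.25. Slc12a3 had 303, 317 and 334 CPM in the libraries labelled Lpar3-/-, against 363, 269 and 309 CPM in WT, with overlap and a log2 fold change of 0.018. In principal cells Aqp4, a water channel gene, had 0.60 with 84.9, 98.3 and 123.4 CPM in the libraries labelled Lpar3-/-, against 67.6, 54.8 and 80.2 CPM in WT (edgeR adjusted p = 0.132, DESeq2 adjusted p = 0.00228). EdgeR called 0 genes in each of these 5 lists, 7 had an unadjusted p under 0.05, and DESeq2 called 3, which were Slc5a12, Aqp1 and Aqp4. The shares over all genes were 0.374%, 9.18% and 1.1%.

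Markers of other cell types differed by list. All 5 adipocyte genes were negative with a median of -1.51, and their summed level was 18.9 to 54.0 CPM in the libraries labelled Lpar3-/- and 62.8 to 134 CPM in WT. The 6 macrophage genes summed to 76.8 to 82.4 CPM in the libraries labelled Lpar3-/-, against 87.8 to 111 CPM in WT, with a median of -0.56 and 6 of 6 negative, and a median of -0.30 without WT replicate 2. At an unadjusted p under 0.05 were 4 adipocyte and 3 macrophage genes, 5 injury genes, and 1 each of the fibroblast, endothelial and podocyte lists. All of these were lower, where 9.18% of all genes passed and 5.21% did so in that direction. The 8 tubular injury genes had a median of -0.70 with 7 of 8 negative, and -0.16 with 6 of 8 without WT replicate 2. Their mean log2 level, each gene centred on its own mean, was -0.30, -0.42 and -0.23 in the libraries labelled Lpar3-/-, against -0.27, 1.10 and 0.11 in WT. WT replicate 2 was the highest, and the groups overlapped at WT replicate 1. Some injury genes had few counts. Krt20, the most negative at -1.86, had a mean of 0.648 CPM in the libraries labelled Lpar3-/-, against 2.39 ± 1.85 CPM in WT. Clu, at 97.8 CPM in the libraries labelled Lpar3-/- against 121 CPM in WT, had -0.30. The 5 fibroblast genes had a median of -0.19 with 4 of 5 negative, and 0.0078 with 2 of 5 negative without WT replicate 2. The 5 endothelial genes had a median of -0.030 and the 4 podocyte genes 0.078. EdgeR called 0 genes in each of these 6 lists and DESeq2 called 2, Adipoq and Plin1, against 0.374% and 1.1% of all genes. Each marker had counts in every library. The summed adipocyte, macrophage and injury levels were lower in the libraries labelled Lpar3-/-, without overlap. The 5 described genes summed to 4248 to 4511 CPM in the libraries labelled Lpar3-/- and 3496 to 3926 CPM in WT. By mean centred log2 level the adipocyte genes overlapped, at 0.19 in replicate 2 of the libraries labelled Lpar3-/- and 0.14 in WT replicate 3. Summed thin limb genes were higher without overlap (1314 to 1427 CPM against 1160 to 1183 CPM in WT). So were principal cell genes (929 to 1066 CPM against 863 to 923 CPM in WT). The part of these lists in the thick limb values was not tested.

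**Figure D5:**
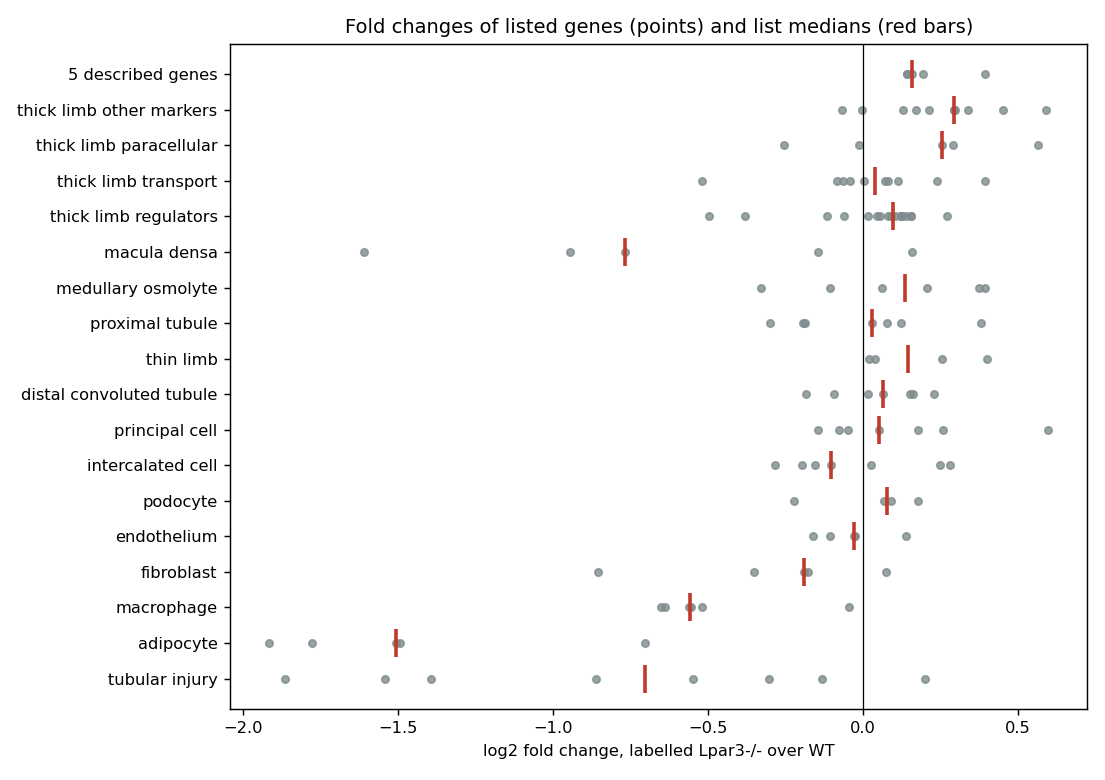
Log2 fold change (x axis, labelled Lpar3-/- over WT) of every tested gene (grey points) in the 5 described genes and 17 gene lists, with the list median as a red bar. The medians of the thick limb lists run from 0.039 to 0.29, and those of adipocyte, tubular injury, macula densa and macrophage genes lie between -1.51 and -0.56.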

How the data were processed

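RNA sequencing counts of 6 mouse kidney libraries, 3 per group, were analysed. The authors deposited whole-number read counts per gene, not normalized, and FPKM values per gene length and library size. Per the submitters' processing notes, the build was GRCm38 and the tools included featureCounts 1.5.0-p3, HISAT2 2.0.5 and DESeq2 1.20.0. Strand setting and annotation release: not given in the sources used here. Of 54909 rows, 377 without a gene name (0.259% to 0.362% of counts) were left out.

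Groups were compared with edgeR 4.0.16 (quasi-likelihood, R 4.3.3) using TMM scaling, the default expression filter, no covariate and Benjamini-Hochberg adjustment over all 15225 genes. SEs and 95% intervals came from the fold change and its F statistic. Alternatives were DESeq2 1.42.0, limma 3.58.1 (voom, and log2(FPKM + 1) or log2(FPKM + 0.1) at a mean FPKM of at least 0.1), RLE and upper quartile scaling, no filter or a stricter one (at least 10 counts in 3 libraries, mean CPM at least 1), a term for the replicate number, and each library left out. Ratios of counts were compared by exact permutation. The tests were checked on simulated counts.

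Groups were taken from sample titles. The 5 genes, the gene lists and the tests were chosen with earlier results of these data known. Named were the 5 genes, the transport and paracellular genes, up to 4 genes with the lowest p of each other list described, and Lpar3 and Epo. Also named, after their values were seen, were Ptger3, Pou3f3, Irx2, Esrrg, Robo2 and the untested Cldn14, Wnk3 and Avpr2, and the repeat of the alternatives for Ppp1r1a. A few listed genes are counted but not reported here by name or drawn singly.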

Additional observations from a re-analysis of the deposited data

How the results depend on the processing

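Each of the 5 genes kept a positive fold change in all 15 alternatives. Slc12a1 passed with DESeq2, limma-voom and no filter (log2 fold change 0.40 each), and in 1 of the 6 fits with a library left out, where it ran from 0.34 to 0.44. Umod, Kcnj1, Bsnd and Casr passed in 0 of 15. Calls over all genes numbered 57 as reported, 173 with DESeq2, 520 with no filter, 9 and 13 with limma on log2(FPKM + 1) and log2(FPKM + 0.1), and 12 to 149 with 1 library left out. Of the 5 genes, 0 were called as reported, 1 with DESeq2, limma-voom and no filter, and 0 to 1 with a library left out. Called genes of the transport list went from 0 to 1 with DESeq2, 2 with no filter, and 0 to 1 with a library left out. Those of the paracellular list went from 0 to 1 with DESeq2 and with no filter, and so did those of the regulator list. Those of the other markers went from 1 to 4 with DESeq2, 5 with no filter, 0 with either FPKM test and 0 to 3 with a library left out. The ratios of Slc12a1 to the 5 other genes kept their sign in each fit. The causes were not tested.

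Replicate numbers are shared between the groups. Deviations from the group mean correlated at -0.0078, -0.0028 and 0.043 between same-numbered libraries, for replicates 1, 2 and 3. A differently numbered pair, replicate 1 of the libraries labelled Lpar3-/- and WT replicate 2, also reached 0.043. All of these were small, so the numbers were not taken to pair samples. With the replicate block 80 genes were called, and Slc12a1 (log2 fold change 0.40, edgeR adjusted p = 0.0492) made 1 of the 5 genes called, and Rragd 1 of the regulator list.

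The 5 genes had 672 counts or more in each library. For the ratios, the exact permutation test on 3 against 3 libraries cannot give a p below 0.1. Leaving out each library for the list medians was chosen after seeing the data.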

Other observations

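Macula densa genes, from the cells at the end of the thick limb that sense luminal salt through NKCC2, were mostly lower by their point estimates in the libraries labelled Lpar3-/-. Of 5 tested, 4 were negative, with a median log2 fold change of -0.77, and of -0.53 to -1.03 with 1 library left out. EdgeR and DESeq2 called 0, and 2 had an unadjusted p under 0.05, where 9.18% of all genes did. Pappa2, a protease gene, had 0.513, 1.13 and 0.636 CPM in the libraries labelled Lpar3-/-, against 1.24, 3.96 and 1.75 CPM in WT, where replicate 2 was the highest. Its log2 fold change was -1.61 (edgeR adjusted p = 0.273), and -0.98 without WT replicate 2 (edgeR adjusted p = 0.557). Nos1, the neuronal nitric oxide synthase gene, had 0.731 ± 0.133 CPM in the libraries labelled Lpar3-/-, against 1.42 ± 0.402 CPM in WT (log2 fold change -0.95, edgeR adjusted p = 0.454). Ptgs2, which encodes cyclooxygenase 2, had a log2 fold change of -0.77. Pappa2, Nos1 and Ptgs2 had 9 to 67 counts per library. The listed genes with more counts differed less. Ptges, with 434 to 662 counts per library, had a log2 fold change of -0.15 (edgeR adjusted p = 0.770). Robo2, with 140 to 193 counts, went the other way at 0.16 (edgeR adjusted p = 0.845).

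Genes of osmolyte handling in the medulla had fold changes of both signs. Of 6 tested, 4 were positive with a median of 0.13, which was 0.042 without WT replicate 2. EdgeR and DESeq2 called 0, and 3 had an unadjusted p under 0.05, where 9.18% of all genes did. The inositol transporter gene Slc5a3 had a log2 fold change of 0.39 and the taurine transporter gene Slc6a6 0.21, while Akr1b3, which encodes the sorbitol-making aldose reductase, had -0.33 (edgeR adjusted p = 0.431, 0.368 and 0.288). All 3 are osmolyte genes that respond to tonicity.

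The genes with profiles most like Slc12a1 were sought among 9529 genes with a mean of at least 10 CPM, by the root mean square difference of log2 CPM centred on each gene's mean over the 6 libraries. They were Cyfip2 (0.050), Fads6 (0.058), Map2 (0.058), Ppp1r1a (0.063) and Tiam1 (0.066), where the own spread of Slc12a1 about its mean was 0.21. Cyfip2 and Ppp1r1a were in the lists above. The nearest of the other members was Umod, at 0.14. The pair of members most alike was Umod and Kcnj1, at 0.077, and none of the 3 genes nearest to Umod (Ipcef1, Ubxn1 and Dzip1l), to Kcnj1 (Bid, S100a1 and Mrpl23), to Bsnd (Exosc9 and Fam110c among them) or to Casr (Tmem256, Impa2 and Scnn1a) was another of the 5. These distances are descriptions over 6 libraries, with no test.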
